A study of Mus musculus with 6 samples.

Results

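The transcripts described here are those of the 5 NF-κB subunits (Rel, Rela, Relb, Nfkb1 and Nfkb2) and of 5 members of the IκB family (Nfkbia, Nfkbib, Nfkbie, Nfkbiz and Bcl3), measured in regulatory T cells (Treg) taken from the spleen after a bone marrow graft. They were found by gene symbol, and each of the 10 symbols matched a single row among the 29199 genes of the count table. Rel was in addition chosen by a measured value, namely its lower level in Treg recovered with HP1α KO Tconv, so for Rel this contrast is given as a description, with no test. The other 9 genes belong by family membership and were tested.

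The study asked how conventional CD4+ T cells (Tconv) that lack HP1α, a heterochromatin protein encoded by Cbx5, respond to Treg, and the libraries used here come from the Treg side of that experiment. There were 3 libraries of Treg with WT Tconv and 3 of Treg with HP1α KO Tconv, called WT and KO replicates 1 to 3 below after the genotype of the Tconv, the one factor that differed between the groups. In both groups the host was a lethally irradiated C57BL/6 J (B6) or CD45.1+ B6 mouse grafted with equal parts of B6 and semi-allogeneic B6D2F1 bone marrow depleted of T and NK cells. The Treg were WT in every library. They came from B6 Foxp3-Thy1.1 mice, in which Thy1.1 marks cells that express Foxp3, and they had been expanded in culture with anti-CD3/CD28 beads for 3 days and rested for 5 to 7 days, with IL-2 at 500 IU/mL and TGF-β at 0.1 ng/mL. The naive Tconv came from Hp1a+/+ or Hp1a-/- littermates of a mixed genetic background. The Hp1a- allele had been made by crossing a floxed Hp1a allele to a CMV-cre line, and heterozygotes were then intercrossed. The wild-type and mutant littermates were 6 to 12 weeks old. The methods of the study give no age for the Treg donors, the bone marrow donors or the hosts. The Treg were sorted from the spleen 3 weeks after the graft by CD4, CD45.2, Thy1.1 and H-2Kb, without CD45.1 or H-2Kd. The labels do not say whether the libraries of a group came from separate mice or pools, so p-values measure the spread between these libraries, which may be technical.

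NF-κB is a family of dimeric transcription factors built from 5 subunits that share a Rel homology domain. In resting cells the classical IκB proteins hold the dimers in the cytoplasm, and signals from the T cell receptor and from TNF receptors lead to phosphorylation and breakdown of IκB and release of the dimers into the nucleus. The atypical IκB proteins act in the nucleus on dimers already bound to DNA. In Treg, c-Rel, the protein product of Rel, is known for its part in Foxp3 induction and Treg development, and RelA for the maintenance of Treg identity. Several IκB genes are themselves NF-κB targets and so form negative feedback loops.

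The promoters of 4 of these genes are shown because one is the member chosen for its level and the other three hold the recognition sequence of the family within the window searched. Each line gives the 250 bases before the canonical transcription start in the GRCm39 genome, 5′ to 3′ on the strand of the gene, with the match to the κB consensus in capitals. The windows lie at chr11:23721265-23721514 on the minus strand for Rel, chr7:19363424-19363673 on the minus strand for Relb, chr12:55539433-55539682 on the minus strand for Nfkbia and chr17:45866356-45866605 on the plus strand for Nfkbie.
Rel: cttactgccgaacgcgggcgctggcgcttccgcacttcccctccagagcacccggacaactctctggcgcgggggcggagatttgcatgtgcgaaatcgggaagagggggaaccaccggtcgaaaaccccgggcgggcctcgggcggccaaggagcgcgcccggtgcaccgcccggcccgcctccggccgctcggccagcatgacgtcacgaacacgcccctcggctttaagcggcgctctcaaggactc
Relb: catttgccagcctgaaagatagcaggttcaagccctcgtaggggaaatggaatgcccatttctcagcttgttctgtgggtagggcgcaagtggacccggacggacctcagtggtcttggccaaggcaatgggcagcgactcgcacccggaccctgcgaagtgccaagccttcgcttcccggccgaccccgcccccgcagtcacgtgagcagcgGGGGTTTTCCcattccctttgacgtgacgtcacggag
Nfkbia: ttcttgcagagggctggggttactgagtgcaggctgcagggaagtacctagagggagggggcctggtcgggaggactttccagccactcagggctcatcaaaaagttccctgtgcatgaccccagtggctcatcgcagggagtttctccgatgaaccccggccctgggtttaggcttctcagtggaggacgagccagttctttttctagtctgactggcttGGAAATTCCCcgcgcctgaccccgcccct
Nfkbie: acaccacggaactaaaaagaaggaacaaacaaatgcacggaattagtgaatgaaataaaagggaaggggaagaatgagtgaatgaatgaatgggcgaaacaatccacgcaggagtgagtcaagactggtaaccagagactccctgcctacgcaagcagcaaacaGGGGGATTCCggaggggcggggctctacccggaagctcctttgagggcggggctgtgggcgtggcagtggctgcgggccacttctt

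The κB consensus was searched on both strands. It matched GGGGTTTTCC in Relb, 37 to 28 bases before the start, and GGGGGATTCC in Nfkbie, 86 to 77 bases before it. In Nfkbia the match lay 29 to 20 bases before the start and reads GGGAATTTCC on the opposite strand. Thus 3 of the 10 genes had a match, as did 4.2% of 21757 protein-coding promoters of the same length. The looser pattern GGGNNNNNCC, which contains the consensus, occurred in 6 of the 10 genes and in 47.8% of all those promoters. In Rel the looser pattern occurred once, as GGGAACCACC at 143 to 134 bases before the start, and the consensus had no match. A match describes these letters only, and binding was not measured here.

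The libraries held 87421755 to 119078882 counts, and 22573 to 24626 genes had a count. All 10 members passed the filter on low counts, with 2427 to 126301 counts each, so that counting error was at most 2.03% of a value and covers sampling of reads only. Treg identity markers (10 genes, among them Foxp3, Ctla4 and Ikzf2) summed to 4815 to 5409 CPM (counts scaled to a common library total, here without TMM factors) with WT Tconv and to 4516 to 5386 CPM with HP1α KO Tconv. Single markers of this list differed more than the sum, which Ikzf2 and Ctla4 dominate. Ctla4 was at 1093 to 1322 CPM with WT Tconv and at 806 to 1047 CPM with HP1α KO Tconv, and Gpr83 at 10.5 to 13.1 and at 16.3 to 21.1 CPM. WT replicate 3 stood apart. Its neutrophil markers (9 genes) summed to 1940 CPM against 43.9 to 241 CPM in the other libraries, its red cell markers (7 of 8 found in the table) to 5567 CPM against 372 to 691 CPM, and its macrophage or monocyte markers (9 genes) to 179.9 CPM against 13.4 to 49.1 CPM. No marker of these lists was at 0 in every library. The B cell markers (7 genes) summed to 25.8 to 37.6 CPM over all libraries. KO replicate 2 also differed from the other libraries of its group. Counts in its pairs differed by 140 and 174 times the sampling variance (chi-square per degree of freedom), against 29 times between KO replicates 1 and 3. In the pairs of WT replicate 3 the values were 114 and 121, against 21.3 between WT replicates 1 and 2. KO replicate 2 had the lowest Foxp3 (158 CPM against 199.6 to 254), Il2ra (124 against 159 to 201) and Lrrc32 (62.8 against 122 to 145) of all 6 libraries. It also had the highest Tnfrsf18 (594 against 385 to 442), Tnfrsf4 (584 against 391 to 487) and Itgae (674 against 536 to 572). The members' fold changes, as values or a range, and the counts at an unadjusted p are therefore also given without each of these 2 libraries. The part of these differences in the member levels was not tested. In bulk RNA, fewer cells of a type and less RNA per cell cannot be told apart.

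None of the 9 genes other than Rel passed the test between the groups, and Rel, chosen for its difference, is given with its values alone. The mean Rel level of the KO libraries was 93.5 ± 16.2 CPM (SD, n = 3), against 161.5 ± 2.97 CPM in the WT libraries (SD, n = 3). Of the 9 other members, 7 were lower and 2 higher, with a median log2 fold change of -0.15 against -0.01 over all 18321 genes tested. None of the 9 had an adjusted p under 0.05 in edgeR's quasi-likelihood test, which called 0% of all genes. At an unadjusted p under 0.05 the count was also 0 of 9, whereas 14.5% of all genes were called, 7.52% lower and 6.98% higher. DESeq2 called 0 of the 9 at an adjusted p under 0.05, with adjusted p from 0.333 to 0.911, and it called 4.35% of the genes to which it gave an adjusted p. The libraries of the 2 groups overlapped for every one of the 9, whereas the groups did not overlap for 23.0% of all genes, 11.6% lower and 11.5% higher.

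**Figure D1:**
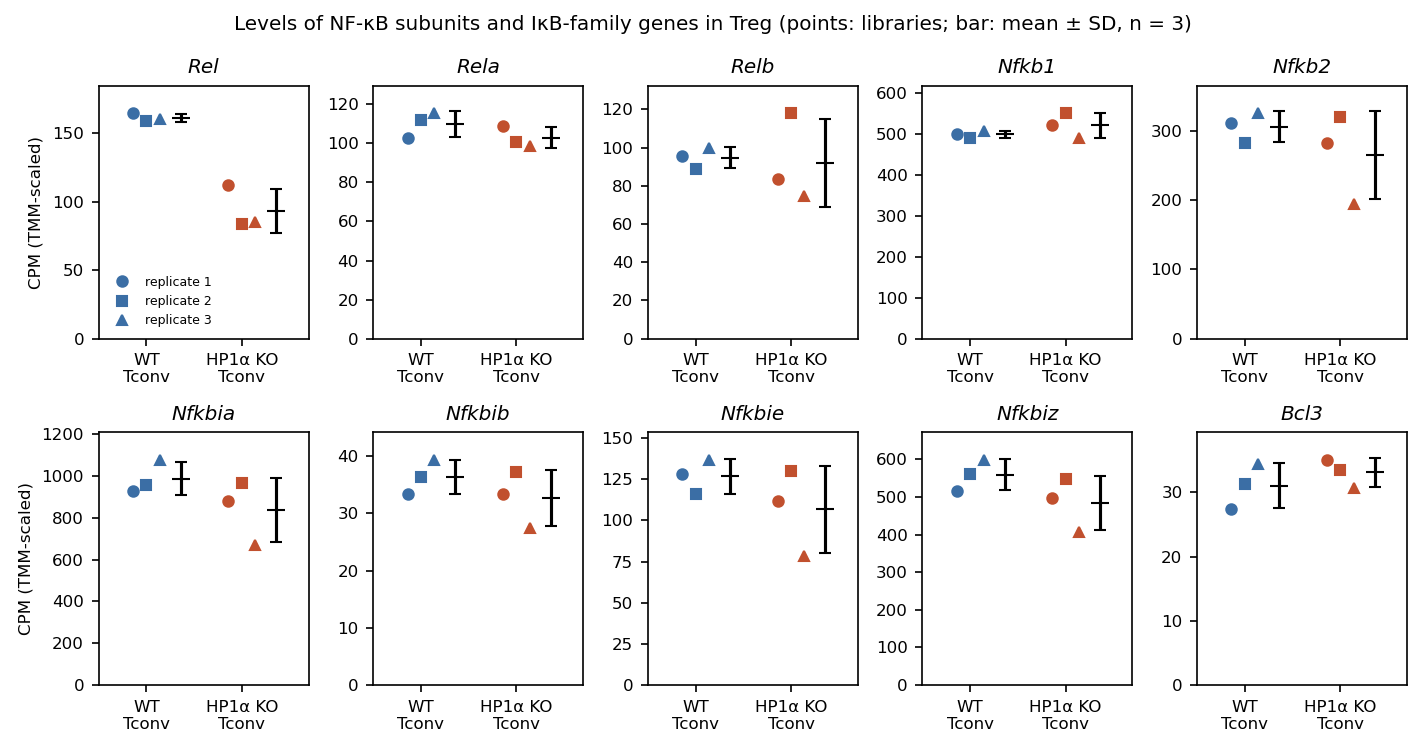
Each panel plots one gene in CPM scaled by TMM factors (vertical axis, from 0), with one point per library for Treg with WT Tconv (blue) and with HP1α KO Tconv (red) and the marker shape giving the replicate number. The black bars are the mean ± SD of 3 libraries. The 3 Rel values with HP1α KO Tconv (83.5 to 112 CPM) lie below the 3 with WT Tconv (159 to 165 CPM), and in every other panel the groups overlap.

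Among the subunits, Rel (ENSMUSG00000020275, chr11:23686847-23721264) encodes c-Rel, a subunit with a transactivation domain that is abundant in lymphocytes. Its level was 165, 159 and 160.4 CPM in the 3 libraries with WT Tconv and 112, 83.5 and 84.9 CPM in the 3 with HP1α KO Tconv. The groups did not overlap, and the libraries with WT Tconv lay within 1.04-fold of each other while those with HP1α KO Tconv spanned 1.34-fold. The log2 fold change (HP1α KO over WT) was -0.79 with an SE of 0.11, a ratio of 0.579. It was -0.79 without WT replicate 3 and -0.71 without KO replicate 2, and it ranged from -0.93 to -0.71 over 16 alternative settings. As the gene was selected on this difference, these values carry no test.

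Rela (ENSMUSG00000024927, chr19:5687493-5698161) encodes RelA, or p65, the main transactivating subunit of the canonical pathway. It was at 103, 112 and 116 CPM with WT Tconv and at 109, 101 and 98.7 CPM with HP1α KO Tconv. The groups overlapped, and the log2 fold change was -0.10 (SE 0.07, 95% interval -0.26 to 0.07, edgeR adjusted p = 0.586), or -0.06 without WT replicate 3. The ratio of Rel to Rela, on levels per kb of exon, was 0.678, 0.601 and 0.586 with WT Tconv and 0.434, 0.349 and 0.363 with HP1α KO Tconv. This ratio contains Rel, whose level chose it, and is a description.

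Relb (ENSMUSG00000002983, chr7:19339017-19363425) encodes the transactivating subunit of the non-canonical pathway. Its level was 95.5, 89.0 and 99.9 CPM with WT Tconv and 83.3, 118 and 74.8 CPM with HP1α KO Tconv. The highest and the lowest library were thus both in the HP1α KO group, and the log2 fold change was -0.04 (SE 0.17, 95% interval -0.45 to 0.36, edgeR adjusted p = 0.931). Its sign turned when single libraries were left out, to 0.038 without KO replicate 1 and 0.089 without KO replicate 3, and it was -0.26 without KO replicate 2. Relb is one of the genes with a κB consensus match in the promoter printed above.

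Nfkb1 (ENSMUSG00000028163, chr3:135290264-135397742) encodes p105, which is processed to the DNA-binding subunit p50. Its level was 499.8, 489.6 and 507 CPM with WT Tconv and 522, 551 and 490.1 CPM with HP1α KO Tconv. The values of the 2 groups overlapped and stayed close together, with a log2 fold change of 0.06 (SE 0.07, 95% interval -0.10 to 0.22, edgeR adjusted p = 0.712), which became 0.021 without KO replicate 2 and 0.11 without KO replicate 3. Nfkb2 (ENSMUSG00000025225, chr19:46292759-46303812) encodes p100, the precursor of p52 and the partner of RelB. It was at 311, 283 and 326 CPM with WT Tconv and at 282, 319.8 and 195 CPM with HP1α KO Tconv. KO replicate 3 lay below the other 5 libraries, which were all at 282 CPM or more, and the log2 fold change was -0.21 (SE 0.18, 95% interval -0.64 to 0.23, edgeR adjusted p = 0.640), or -0.03 without that library and -0.36 without KO replicate 2. Nfkb2 shares 24.47% of its exonic bases with Psd and 13.68% with the lncRNA 4833438C02Rik on the other strand. These held 114 to 213 and 2278 to 3827 counts, and the strand setting of the counting is not given in the sources used here, so reads in the shared bases may be split between these genes.

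The subunit transcripts were also compared as shares of their summed level per kb of exon, the union of all annotated exons of a gene. Rel made up 14.2%, 14.1% and 13.2% of the sum with WT Tconv and 10.3%, 7.26% and 9.22% with HP1α KO Tconv. Nfkb1 made up 25.8% ± 0.46 (SD, n = 3) and 30.0% ± 1.87 (SD, n = 3), Rela 22.3% ± 1.24 and 23.3% ± 2.33, Relb 12.4% ± 0.332 and 13.2% ± 2.13, and Nfkb2 25.7% ± 1.08 and 24.5% ± 3.35. As the shares add up to the whole, a smaller share of Rel moves the others. The 4 subunits without Rel summed to 130 ± 5.26 CPM per kb with WT Tconv and to 124 ± 15.0 CPM per kb with HP1α KO Tconv, and these ranges overlapped. With the longest transcript as the length, the Rel share was 8.92% with WT Tconv and 5.49% with HP1α KO Tconv.

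**Figure D2:**
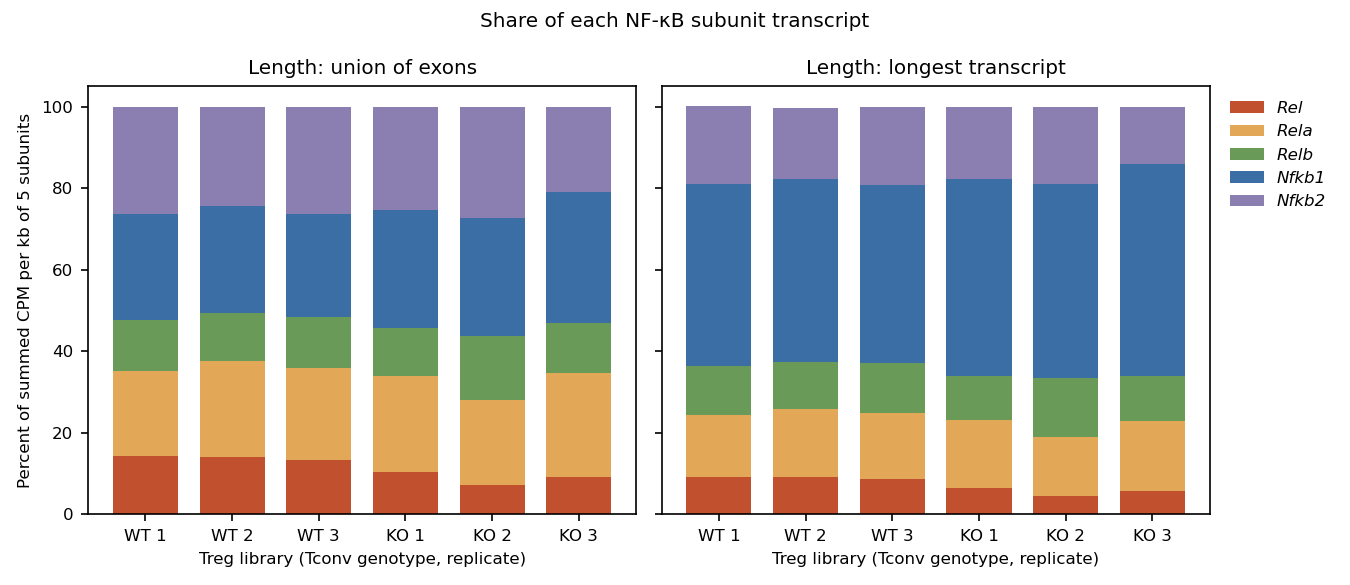
Each bar is 1 library of Treg with WT Tconv (WT) or with HP1α KO Tconv (KO), divided into the share of each subunit in the summed CPM per kb of the 5 subunits (percent), with length taken as the union of exons on the left and as the longest transcript on the right. The share of Rel is 13.2% to 14.2% in the WT bars and 7.26% to 10.3% in the KO bars on the left, and it changes with the length used.

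The cytoplasmic inhibitors came next. Nfkbia (ENSMUSG00000021025, chr12:55535332-55539432) encodes IκBα, the inhibitor that is broken down and resynthesised in each round of canonical signalling. Its level was 929, 955 and 1079 CPM with WT Tconv and 882, 966 and 669 CPM with HP1α KO Tconv. The groups overlapped, and the log2 fold change was -0.24 (SE 0.14, 95% interval -0.55 to 0.08, edgeR adjusted p = 0.478). The value was -0.10 without KO replicate 3 and -0.17 without WT replicate 3.

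Nfkbib (ENSMUSG00000030595, chr7:28457486-28466937) encodes IκBβ, a second inhibitor of canonical dimers. It was at 33.3, 36.3 and 39.4 CPM with WT Tconv and at 33.4, 37.2 and 27.5 CPM with HP1α KO Tconv, so that the groups overlapped. The log2 fold change was -0.15 (SE 0.12, 95% interval -0.43 to 0.12, edgeR adjusted p = 0.591). It was -0.04 without KO replicate 3, -0.26 without KO replicate 2 and -0.09 without WT replicate 3. On the other strand, Nfkbib shares 14.33% of its exonic bases with the lncRNA Gm71901, which had no row in the table, 13.31% with Ccer2 (0 to 10 counts) and 1.78% with Sirt2 (5655 to 8058 counts), so its reads may be split with these genes as well.

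Nfkbie (ENSMUSG00000023947, chr17:45866585-45874661) encodes IκBε, an inhibitor known to act on dimers that contain RelA or c-Rel. Its level was 128, 116 and 137 CPM with WT Tconv and 112, 130.2 and 78.2 CPM with HP1α KO Tconv. Replicate 3 of the HP1α KO group was the lowest of all 6 libraries, and the log2 fold change was -0.25 (SE 0.19, 95% interval -0.70 to 0.20, edgeR adjusted p = 0.588). It moved to -0.07 without that library and to -0.42 without replicate 2 of the same group. The summed level of the 3 cytoplasmic inhibitors per kb, divided by that of the 5 subunits, was 3.68 ± 0.188 (SD, n = 3) in the WT libraries and 3.46 ± 0.263 (SD, n = 3) in the KO libraries, with overlapping groups. The subunit sum contains Rel, which was chosen for its level, so this ratio is a description.

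Of the nuclear members, Nfkbiz (ENSMUSG00000035356, chr16:55631738-55659262) encodes IκBζ, which is induced by inflammatory signals and modulates transcription by NF-κB dimers. It was at 517, 563 and 599.7 CPM with WT Tconv and at 499, 548 and 406 CPM with HP1α KO Tconv. The groups overlapped, and the log2 fold change was -0.21 (SE 0.12, 95% interval -0.47 to 0.05, edgeR adjusted p = 0.451), or -0.10 without KO replicate 3. Bcl3 (ENSMUSG00000053175, chr7:19541553-19557570) encodes a nuclear protein that binds p50 and p52 homodimers. Its level was 27.4, 31.3 and 34.4 CPM with WT Tconv and 35.1, 33.6 and 30.7 CPM with HP1α KO Tconv. These values overlapped, with a log2 fold change of 0.09 (SE 0.10, 95% interval -0.13 to 0.32, edgeR adjusted p = 0.694). The value was 0.026 without WT replicate 1 and 0.18 without WT replicate 3. Another IκB family gene, Nfkbid, which encodes the nuclear protein IκBNS, was at 214, 242 and 281 CPM with WT Tconv and at 245, 307 and 199 CPM with HP1α KO Tconv, with a log2 fold change of 0.03 (SE 0.18, edgeR adjusted p = 0.955).

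The 10 genes differed widely in level. Per kb of exon and with WT Tconv, the mean levels ran in the order Nfkbia (509.8 CPM per kb), Nfkbiz (99.7), Nfkb1 (38.83), Nfkb2 (38.82), Rela (33.6), Nfkbie (30.3), Rel (20.8), Relb (18.6), Nfkbib (15.4) and Bcl3 (5.92). With HP1α KO Tconv the order of the first 6 was kept, and Relb (18.1 CPM per kb) and Nfkbib (13.9) stood above Rel (12.1 ± 2.09, SD, n = 3). The place of Relb rests on the length used, since per kb of longest transcript it stood above Rel with WT Tconv as well (27.9 against 20.8 CPM). Within the WT libraries, the ranges of neighbours in this order overlapped for Nfkb1 and Nfkb2 and for Rela and Nfkbie, and the other neighbours were separate. Within the KO libraries, only Nfkbia and Nfkbiz, Nfkbiz and Nfkb1, and Rel and Bcl3 were separate from their neighbour, and the ranges from Nfkb1 down to Rel overlapped from each gene to the next. The length used matters most for Nfkb1, whose exons add up to 12848 bases while its longest transcript has 4802 bases. Per kb of longest transcript its level with WT Tconv was 104 CPM against 43.5 CPM for Nfkb2. On the same measure Nfkbie stood above Rela in both groups. The values were 42.22 against 37.55 CPM with WT Tconv and 35.54 against 35.13 CPM with HP1α KO Tconv.

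The spread among replicates was larger with HP1α KO Tconv for 8 of the 10 genes, against 56.4% of all genes tested. Rel is one of the 8 (SD of log2 CPM 0.026 with WT Tconv and 0.24 with HP1α KO Tconv). As it was chosen on its values in these libraries, this count and the medians over the 10 genes are a description. The median SD of log2 CPM over the 10 genes was 0.11 with WT Tconv and 0.23 with HP1α KO Tconv, and over all genes it was 0.14 and 0.18. KO replicate 3 was the lowest of the 6 libraries for 7 of the 9 members other than Rel, namely Rela, Relb, Nfkb2, Nfkbia, Nfkbib, Nfkbie and Nfkbiz, whereas it was the lowest for 19.7% of all genes. WT replicate 3 was the highest for 6 of the 9 and for 20% of all genes. That library is also the one with the most neutrophil, red cell and macrophage transcripts. Without it, the log2 fold changes of the 9 genes ran from -0.19 for Nfkbie to 0.18 for Bcl3. Without KO replicate 2 they ran from -0.42 for Nfkbie to 0.09 for Bcl3. In that setting 4 of the 9 members (Nfkbia, Nfkbib, Nfkbiz and Relb) were lower at an unadjusted p under 0.05 in the edgeR test, where 16.4% of all genes were called, 8.92% lower. Over all alternatives, the smallest adjusted p of the 9 members other than Rel was 0.190, for Relb.

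**Figure D3:**
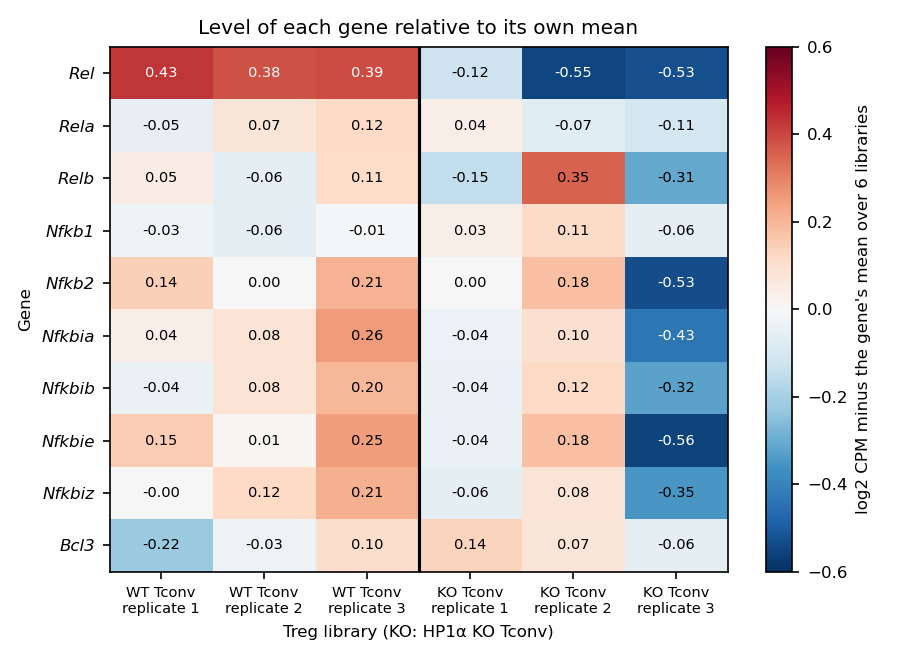
The heatmap gives, for each gene (rows) and each library (columns, with a line between the groups), the log2 CPM minus the mean of that gene over the 6 libraries, printed in each cell. Rel is above its mean in all libraries with WT Tconv (0.38 to 0.43) and below it in all with HP1α KO Tconv (-0.55 to -0.12), and the column of KO replicate 3 is at or below -0.31 for Relb, Nfkb2 and the 4 IκB genes from Nfkbia to Nfkbiz.

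Upstream of the dimers, a list of 38 pathway genes was read in the same way, covering the IKK complex and its kinases, the adaptors of the T cell receptor, TRAF and death domain adaptors, and ubiquitin-editing and feedback genes. None of the 38 had an adjusted p under 0.05 in edgeR. At an unadjusted p under 0.05 there were 11 (28.9%), 5 lower and 6 higher, against 14.5% of all genes, and the median log2 fold change was 0.00. DESeq2 called 6 at an adjusted p under 0.05 (Malt1, Map3k14, Tab1, Tab3, Traf2 and Traf6), against 4.35% of the genes that it gave an adjusted p. The 11 were spread over the list, with 3 of the 10 genes of the IKK group, 2 of the 4 receptor adaptors, 3 of the 12 TRAF and death domain adaptors and 3 of the 12 feedback genes.

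Malt1, the paracaspase that links the T cell receptor to IKK, had the smallest p of the list. It was at 413, 459.8 and 387 CPM with WT Tconv and at 319, 279 and 284 CPM with HP1α KO Tconv, so that the groups did not overlap. The log2 fold change was -0.51 (SE 0.09, edgeR adjusted p = 0.209, DESeq2 adjusted p = 0.000207). Tab1, an adaptor of the kinase TAK1, was at 16.2, 16.4 and 17.4 CPM with WT Tconv and at 21.9, 22.1 and 21.4 CPM with HP1α KO Tconv. It was higher in all 3 libraries with HP1α KO Tconv (log2 fold change 0.39, SE 0.08, edgeR adjusted p = 0.209, DESeq2 adjusted p = 0.0124). Map3k14, which encodes NIK, the kinase that starts the non-canonical pathway, was at 36.3, 39.1 and 34.9 CPM with WT Tconv and at 47.8, 45.1 and 53.2 CPM with HP1α KO Tconv. Again the groups did not overlap (log2 fold change 0.40, SE 0.08, edgeR adjusted p = 0.209, DESeq2 adjusted p = 0.00993).

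The other 8 genes under that unadjusted threshold, apart from Tnfaip3, were named after their values were seen. The count of 11 was 8 without WT replicate 3, where 11.2% of all genes were under the threshold, and 16 without KO replicate 2, where 16.4% were. Lower with HP1α KO Tconv were Tab3 (log2 fold change -0.44), Traf6 (-0.35), Zc3h12a, an RNase known to degrade inflammatory transcripts (-0.33), and Tnfaip3 (-0.35). Higher were Traf2 (0.37), Tradd, an adaptor of the TNF receptor (0.24), Rbck1, a subunit of the linear ubiquitin ligase (0.22), and Prkcq, the kinase PKCθ (0.20). The 3 genes of the IKK complex itself, Chuk, Ikbkb and Ikbkg, had log2 fold changes of -0.08, 0.07 and 0.06. Bcl10, an adaptor that binds Malt1, had -0.07.

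A list of 32 genes known as NF-κB targets in lymphocytes, 5 of them also on the pathway list, gave 3 genes at an unadjusted p under 0.05 (9.38%, 2 lower and 1 higher), against 14.5% of all genes. None passed at an adjusted p under 0.05 in edgeR or in DESeq2, and the median log2 fold change was -0.08. Tnfaip3 encodes A20, a ubiquitin-editing inhibitor of NF-κB signalling. In CPM, which are not divided by gene length, it was the highest of the named genes. It was at 3433, 3923 and 3637 CPM with WT Tconv and at 2967, 3329 and 2301 CPM with HP1α KO Tconv. The groups did not overlap, and the log2 fold change was -0.35 (SE 0.13, edgeR adjusted p = 0.291, DESeq2 adjusted p = 0.0913). Per kb of exon, its mean with WT Tconv (377.3 CPM) was below that of Nfkbia (509.8 CPM). The survival genes Bcl2 and Bcl2l1, which encodes Bcl-xL, differed in opposite directions. Bcl2 was at 62.2, 58.9 and 60.4 CPM with WT Tconv and at 68.2, 77.8 and 75.7 CPM with HP1α KO Tconv (log2 fold change 0.29, SE 0.07, edgeR adjusted p = 0.209). Bcl2l1 was at 78.7, 81.1 and 93.4 CPM with WT Tconv and at 68.2, 62.8 and 76.3 CPM with HP1α KO Tconv (log2 fold change -0.29, SE 0.10, edgeR adjusted p = 0.249). The count of 3 became 1 without WT replicate 3 and 8 without KO replicate 2, and the share of all genes went from 14.5% to 11.2% and 16.4%.

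For Il2ra and Irf4, named here after their values were seen, the groups overlapped. Il2ra, the high-affinity IL-2 receptor chain that marks Treg, was at 177, 172 and 162 CPM with WT Tconv and at 179, 121 and 199 CPM with HP1α KO Tconv (log2 fold change -0.04). Irf4, a transcription factor of activated Treg, was at 213, 189.9 and 215 CPM and at 199, 193 and 134 CPM (log2 fold change -0.23, edgeR adjusted p = 0.532). The near-identical copies Bcl2a1b and Bcl2a1d can share reads, and their log2 fold changes were -0.09 and -0.17.

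**Figure D4:**
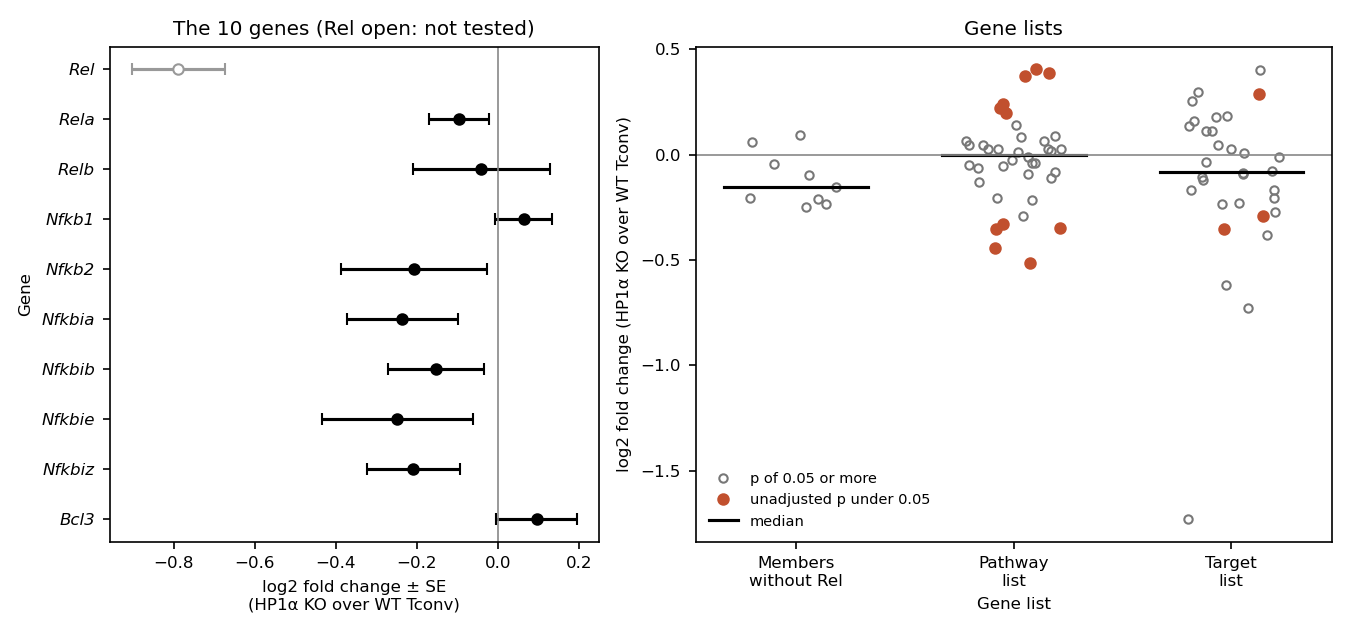
On the left, the log2 fold change of each gene (HP1α KO over WT Tconv, horizontal axis) is drawn with its SE, with Rel as an open symbol since it was not tested. On the right, each point is a gene of the 9 members other than Rel, the pathway list or the target list, filled where the unadjusted p was under 0.05, and the black lines are the medians (-0.15, 0.00 and -0.08). Rel lies at -0.79 and the other 9 genes lie between -0.25 and 0.09.

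The genes most like Rel across the 6 libraries were ranked among 8847 genes with a mean of at least 10 CPM by the root mean square difference of their centred log2 CPM from that of Rel. The 5 nearest were Gm15832 (0.104), an lncRNA that shares 39.22% of its exonic bases with Rnf149, Rgs2 (0.105), a regulator of G protein signalling, Got1 (0.112), a cytosolic aspartate aminotransferase, Bhlhe40 (0.121), a transcription factor of activated T cells, and the pseudogene Gm15542 (0.123). Bhlhe40 was at 1424, 1409 and 1606 CPM with WT Tconv and at 1125, 751 and 670.0 CPM with HP1α KO Tconv. Rgs2 was at 645, 685 and 705 CPM and at 492, 418 and 384 CPM. Both were thus lower in every library with HP1α KO Tconv, as the measure of likeness requires. The nearest other member was Nfkbia, with a difference of 0.341 at rank 1051, and the farthest was Bcl3, with 0.474 at rank 5856.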

How the data were processed

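Total RNA of sorted splenic Treg was sequenced from stranded libraries (Illumina TruSeq). Per the labels and the methods of the study, the authors aligned reads to GRCm39 with STAR and quantified genes with Salmon, and the table they deposited holds estimated counts, as whole numbers and without normalization. Since Salmon assigns ambiguous reads by a statistical model, counts of overlapping or highly similar genes can shift. Rows without a gene symbol (64, with 0.0231% of counts) were kept under their identifiers.

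Counts were tested with edgeR 4.0.16 in R 4.3.3 (glmQLFit with robust estimation, glmQLFTest, TMM, filterByExpr, 18321 genes tested, two-sided, Benjamini-Hochberg over all genes), with group as the sole term and a threshold of 0.05. CPM of genes were scaled by TMM factors, except those of cell type markers and their sums, which are CPM of the library total (Il2ra is printed on both scales). Fold changes are edgeR's log2 ratios (HP1α KO over WT), with the SE taken from the F statistic and 95% intervals. Centred log2 CPM used a prior count of 2. The alternatives were DESeq2 1.42.0, limma-voom (limma 3.58.1), other edgeR settings, normalizations and filters, and leaving out each library. Of 29199 identifiers, 28854 matched the GENCODE vM39 annotation, from which exon lengths, overlaps and transcript starts were taken. Promoters were read from the GRCm39 genome. The fit was tested on simulated data. Replicates of a group differed by at least 21.3 times the sampling variance of their counts, so none was counted as a repeat deposit.

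All 10 members, the 3 genes of each list with the smallest p, Nfkbid, Tnfaip3 and Map3k14, and the 5 genes most like Rel were named by rule, and other genes after their values were seen. The members and lists were chosen with earlier results of these data known. No column was left unused.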

Additional observations from a re-analysis of the deposited data

How the results depend on the processing

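With 3 libraries per group, the 95% intervals of the 9 members other than Rel reached log2 fold changes as low as -0.70 (Nfkbie), so differences within them could not be told from none, while counting error was at most 2.03% of a member's count. None of the 9 had an adjusted p under 0.05 under any of the 16 alternatives. Over all genes, the count with an adjusted p under 0.05 was 0 in edgeR, 526 with DESeq2, 1 with upper quartile normalization (Gm10259), 38 with no filter beyond 1 count, and 0 to 2 when each replicate was left out in turn (Zbtb9 without WT replicate 2, and Trav13n-2 among the 2 without KO replicate 1). Among the 9 members, the count at an unadjusted p under 0.05 was 0 to 4 when replicates were left out, with 4 only without KO replicate 2, and the share of all genes at that threshold was 10.4% to 16.4%, the highest also without KO replicate 2. For the target list it was 5 with no filter beyond 1 count and 1 to 8 when replicates were left out. The log2 fold change of Relb ranged from -0.26 (without KO replicate 2) to 0.089 (without KO replicate 3), and changed sign, to 0.038, without KO replicate 1 as well. The cause of these shifts was not tested. The other 8 tested members and Rel kept their direction throughout.

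Replicate numbers were shared between the groups. Deviations of same-numbered libraries from their group means correlated at -0.04, 0.18 and 0.12 over 18321 genes. The value of 0.18, for the libraries numbered 2, was the highest of all pairs. Pairs with different numbers ran from -0.22 (WT replicate 3 with KO replicate 2) to 0.12 (WT replicate 3 with KO replicate 1). With 3 libraries per group, these values cannot tell whether same-numbered libraries came from a shared experiment. The fit with the replicate block gave 1 gene at an adjusted p under 0.05 (Zbtb9) over all genes and 0 of the 9 members at either threshold.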
